A study of Mus musculus with 93 samples.

Results

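The p53 and senescence response was followed through 10 genes in the livers of 7 inbred mouse strains: Trp53, Cdkn1a, Mdm2, Ccng1, Phlda3, Bax, Trp53inp1, Gadd45a, Gadd45b and Ccnd1. The 10 genes were chosen by symbol and were found by Ensembl identifier among the 53465 genes of the count table. All 10 were among the 19110 genes that passed the filter on low counts. The study asked how genetic background shapes the course of diet-induced fatty liver disease, and RNA was sequenced from whole livers of 93 male mice. Mice were moved to thermoneutral housing at 30°C at 6 weeks of age, were given either a control diet (CD, 10% of kcal from fat) or a western diet (WD, 40%) from 7 weeks for 17 weeks, and were killed at 24 weeks. The strains were C57BL/6J (8 CD and 8 WD mice), DBA/2J (6 and 7), A/J (5 and 6), 129S1/SvImJ (7 and 6), WSB/EiJ (6 and 6), CAST/EiJ (7 and 8) and PWK/PhJ (6 and 7). WSB/EiJ, CAST/EiJ and PWK/PhJ are wild-derived and the other 4 are classical laboratory strains. Warm housing was shared by both diets, so its own effect is in no comparison, and each strain was spread over 2 or 3 of the 7 cohorts of mice, which gave 15 sets of mice of 1 strain and 1 cohort. These sets held 1 to 5 mice of each diet, with a single CD mouse in CAST/EiJ cohort 1. Counts over these sets are given without a test and without a share over all genes.

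Trp53 encodes p53, the transcription factor that responds to DNA damage and other cellular stress by inducing genes that halt the cell cycle, repair DNA or start apoptosis. Its activity is set largely by how long the protein survives rather than by how much of its mRNA is made: Mdm2, an E3 ubiquitin ligase and itself a p53 target, marks p53 for destruction. Cdkn1a (p21) inhibits the cyclin-dependent kinases that drive entry into S phase and is a standard marker of senescence, the lasting exit from the cell cycle. In the liver, raised p21 in hepatocytes is a well-known feature of fatty liver disease and of injury.

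In GRCm38 the genes lie at chr11:69580359-69591873 (Trp53, + strand), chr17:29090976-29100727 (Cdkn1a, + strand), chr10:117688875-117710758 (Mdm2, - strand), chr11:40748552-40755311 (Ccng1, - strand), chr1:135766119-135769136 (Phlda3, + strand), chr7:45461697-45466898 (Bax, - strand), chr4:11156431-11174379 (Trp53inp1, + strand), chr6:67035096-67037457 (Gadd45a, - strand), chr10:80930073-80932204 (Gadd45b, + strand) and chr7:144929931-144939925 (Ccnd1, - strand), and all 10 are protein-coding. Sequences within 250 bases before the transcription start were taken from RefSeq (GRCm38.p6). The RefSeq start can differ from the gene positions above: the Gadd45a half-site below lies before the RefSeq start but inside the span given for the gene. A window was found for 8 of the 10 genes, with 2 start sites for Cdkn1a. These windows are shown because p53 binds DNA directly: they were searched on both strands for the p53 half-site consensus and for 3 common promoter motifs, the TATA box as TATAAA, the CCAAT box by its own letters, and the Sp1 box as GGGCGG. The half-site was present in 6 of the 8 genes with a window, namely Trp53, Cdkn1a, Mdm2, Ccng1, Bax and Gadd45a, and in 7.13% of all 32526 promoters. The TATA box letters were present in 12.3% of promoters, the CCAAT box in 33.8% and the Sp1 box in 33% of them. The matches follow with 10 bases on either side, the match in capitals, each read on the strand of its gene.
Trp53, chr11:69580284-69580293, + strand: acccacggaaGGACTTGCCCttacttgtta
Cdkn1a, chr17:29090906-29090915, + strand: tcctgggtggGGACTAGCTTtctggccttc
Cdkn1a, chr17:29090928-29090937, + strand: tggccttcagGAACATGTCTtgacatgttc
Mdm2, chr10:117710935-117710944, - strand: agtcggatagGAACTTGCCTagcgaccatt
Ccng1, chr11:40755462-40755471, - strand: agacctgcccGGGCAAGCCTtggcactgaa
Bax, chr7:45467090-45467099, - strand: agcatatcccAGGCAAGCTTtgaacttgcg
Gadd45a, chr6:67037438-67037447, - strand: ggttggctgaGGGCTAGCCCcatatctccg

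The promoter windows of the 3 genes with a sequence and the largest mean diet effect are given whole, with matches in capitals. Phlda3 held the Sp1 box at 2 places and none of the other motifs. Gadd45a held the half-site, a CCAAT box and an Sp1 box. Gadd45b was the only one of the 3 with a TATA box, and also held 2 CCAAT boxes and 1 Sp1 box. A match is a string of letters and does not show binding.
Phlda3, chr1:135765835-135766084, + strand: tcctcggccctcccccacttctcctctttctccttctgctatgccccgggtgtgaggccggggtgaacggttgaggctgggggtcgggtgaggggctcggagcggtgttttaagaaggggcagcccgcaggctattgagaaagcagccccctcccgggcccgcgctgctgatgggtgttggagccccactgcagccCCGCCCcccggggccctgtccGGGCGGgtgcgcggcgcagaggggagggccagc
Gadd45a, chr6:67037408-67037657, - strand: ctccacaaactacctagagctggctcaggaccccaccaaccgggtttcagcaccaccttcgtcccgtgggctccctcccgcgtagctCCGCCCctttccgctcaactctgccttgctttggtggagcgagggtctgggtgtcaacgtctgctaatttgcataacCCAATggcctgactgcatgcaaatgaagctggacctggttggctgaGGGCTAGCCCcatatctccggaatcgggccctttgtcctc
Gadd45b, chr10:80929841-80930090, + strand: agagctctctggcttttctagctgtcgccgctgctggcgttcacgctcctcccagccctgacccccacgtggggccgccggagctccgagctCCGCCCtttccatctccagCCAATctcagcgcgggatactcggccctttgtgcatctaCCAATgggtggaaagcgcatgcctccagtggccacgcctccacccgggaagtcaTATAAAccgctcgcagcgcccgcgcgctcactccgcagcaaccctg

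Between 40020424 and 49894856 reads fell on genes in each mouse (median 46618609). The share of reads that did not map to the C57BL/6J reference was highest in CAST/EiJ (means of 10.8% on CD and 13.3% on WD, over all mice 1.66% to 14.8%), so levels are compared between strains with less certainty than between diets within a strain. The unmapped share also differed between diets within strains. In PWK/PhJ it was 2.22% to 4.23% on CD and 5.48% to 8.73% on WD, and in WSB/EiJ the means were 4.52% and 7.42%. In DBA/2J (means of 6.45% and 4.77%) and A/J (2.25% and 2.11%) it was lower on WD. The part of mapping in the diet differences was not tested. Values are counts scaled to library size (CPM) after TMM scaling, log2 fold changes are WD minus CD from 1 limma-voom fit over all mice, and adjusted p-values are Benjamini-Hochberg values over all genes tested. "Rose", "fell" and "changed" are used for an adjusted p below 0.05. Bulk liver RNA cannot tell more cells of a type from more RNA per cell. Some mice stood apart. C57BL/6J CD replicate 2 had the lowest mean correlation with its group of all mice (0.954, against 0.983 for the highest in that group), with summed CPM of proliferation markers of 114 where the group's median was 9.31, and of cholangiocyte markers of 441 against a median of 54.9. CAST/EiJ CD replicates 5, 6 and 7, all of cohort 4, stood apart for several of the 10 genes, as described with Cdkn1a. Their mean correlations with the group were 0.977 to 0.981 (group range 0.977 to 0.982), with replicates 5 and 6 the lowest. A mean over the whole group, these mice included, cannot show whether they also stood apart for the transcriptome as a whole.

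On WD Ccng1 and the low-expressed Phlda3 each rose in 3 of the 7 strains, Ccnd1 rose in 2 and fell in 1, and Cdkn1a, Bax and Gadd45a passed the test in no single strain. Over all 70 combinations of gene and strain, 11 were higher and 3 lower on WD. In C57BL/6J, 1 gene rose and 1 fell, where 14.3% of all genes tested rose and 11.9% fell. In DBA/2J 3 rose (10.2% of all genes rose), in 129S1/SvImJ 2 (14.5%) and in PWK/PhJ 4 (15.1%). In CAST/EiJ 1 rose (9.77%) and 2 fell (9.73%). None of the 10 passed the test in A/J (9.03% of all genes changed) or WSB/EiJ (8.94%), but at an unadjusted p under 0.05 3 (Ccng1, Gadd45b and Ccnd1) and 1 (Mdm2) of the 10 did. In A/J, edgeR and DESeq2 each called 1 gene, and in WSB/EiJ 0. The median log2 fold change of the 10 genes ran from -0.05 in A/J to 0.38 in DBA/2J, beside medians over all genes between -0.01 and 0.02. Nothing particular to the 10 as a group is read from these counts.

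**Figure D1:**
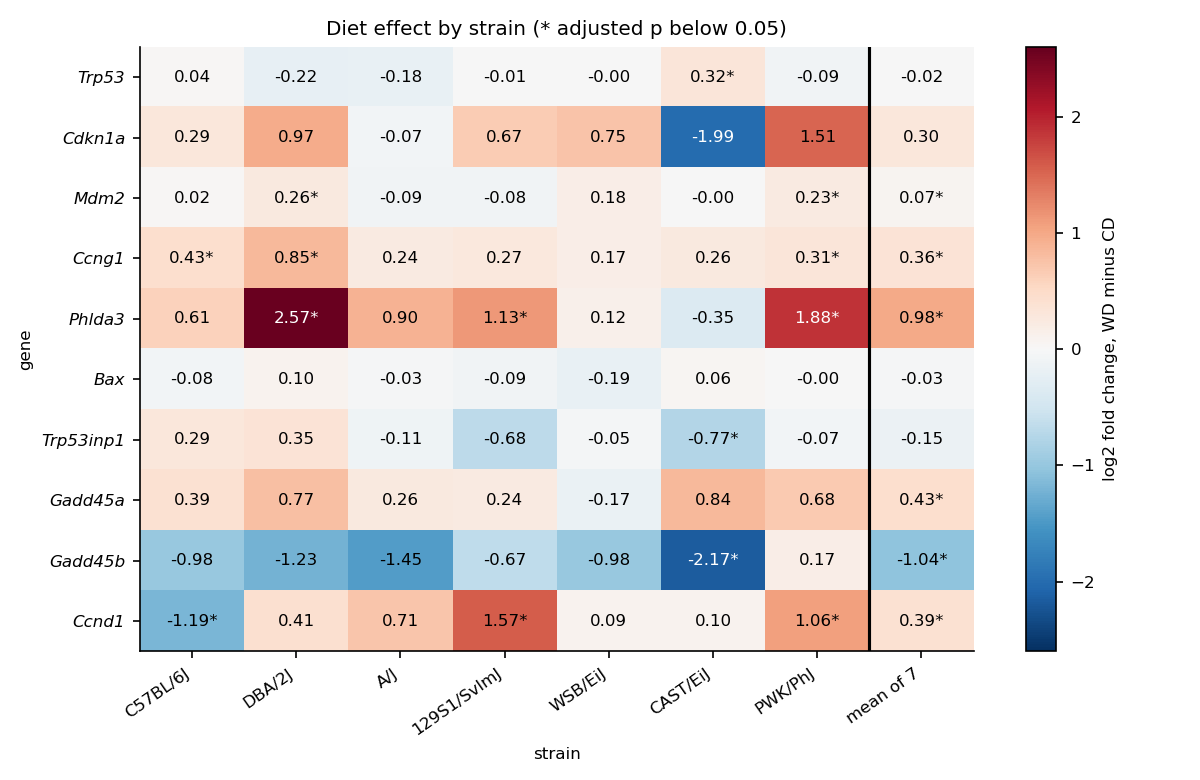
Log2 fold change (WD minus CD) of the 10 genes in each of 7 strains and averaged over the strains, as a colour scale with the value printed in each cell; an asterisk marks an adjusted p below 0.05 in limma-voom. Ccng1 is positive in every strain, Gadd45b is negative in 6 of 7, and Ccnd1 is negative in C57BL/6J alone.

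Averaged over the 7 strains, 5 genes rose on WD and 1 fell, while 27.1% of all genes rose and 24.5% fell in that test. The risers were Phlda3 (log2 fold change 0.98, SE 0.20, adjusted p = 1.9e-05), Gadd45a (0.43, SE 0.14, 0.0068), Ccnd1 (0.39, SE 0.12, 0.0059), Ccng1 (0.36, SE 0.04, 1.5e-11) and Mdm2 (0.07, SE 0.03, 0.032), and Gadd45b was the one that fell (-1.04, SE 0.27, 0.00078). The mean rise of Mdm2 did not pass without C57BL/6J WD replicate 3 (adjusted p = 0.073), PWK/PhJ WD replicate 2 (0.061) or 129S1/SvImJ CD replicate 2 (0.052). The size of the diet effect differed between strains for 6 genes, in an F test of the strain by diet interaction that 37.5% of all genes passed: Ccnd1 (adjusted p = 3.0e-06), Trp53 (0.0038), Phlda3 (0.0056), Ccng1 (0.0059), Mdm2 (0.018) and Cdkn1a (0.035). Cdkn1a no longer passed with any of 10 single mice left out (adjusted p up to 0.097), CAST/EiJ CD replicates 5, 6 and 7 among them. With those CAST/EiJ replicates all left out together, neither Cdkn1a nor Trp53 passed. Bax, Trp53inp1, Gadd45a and Gadd45b did not pass the interaction test with all mice.

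Trp53 itself had the narrowest range of the 10 genes. Group means lay between 23.8 CPM (CAST/EiJ CD) and 31.6 CPM (PWK/PhJ CD), a 1.33-fold range. On WD no pair of strains differed, of 21 pairs, where 50.4% of all gene and pair tests passed. The strain F test on WD did not pass either (adjusted p = 0.32), where 93.9% of all genes passed. On CD, 6 of the 21 pairs differed, where 48% of all gene and pair tests passed. CAST/EiJ lay below its nearest neighbour C57BL/6J by a log2 difference of 0.26 (adjusted p = 0.0043). In CAST/EiJ the CD mice ran from 19.3 through a median of 22.0 to 32.8 CPM and the WD mice from 26.9 through 29.2 to 33.4 CPM. The ranges overlapped, and Trp53 rose by 0.32 (SE 0.08, adjusted p = 0.0030) on the log2 scale, differing from the mean of the other 6 strains by 0.40 (adjusted p = 0.0012, a test that 14.5% of all genes passed for CAST/EiJ). Replicates 5, 6 and 7 had 19.3, 22.0 and 20.9 CPM. Without them the rise was 0.19 (adjusted p = 0.34) and no longer passed.

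Mdm2, the negative regulator, rose in DBA/2J and PWK/PhJ, by small amounts. In DBA/2J the CD mice had 27.1 to 36.0 CPM (median 30.9) and the WD mice 31.1 to 43.9 (median 36.4). Of the 7 WD mice, 4 were above every CD mouse (log2 fold change 0.26, SE 0.08, adjusted p = 0.013). In PWK/PhJ the CD mice had 26.6 to 32.0 CPM (median 29.6) and the WD mice 31.4 to 37.9 (median 33.7), 5 of the 7 being above every CD mouse (0.23, SE 0.08, 0.022). The PWK/PhJ rise no longer passed without CD replicate 1 (adjusted p = 0.066), CD replicate 6 (0.054) or WD replicate 5 (0.053), nor the DBA/2J rise without CD replicate 2 (0.053). 129S1/SvImJ had the highest mean on both diets, at 44.7 ± 9.21 CPM (SD, n = 7) on CD and 41.7 ± 5.13 (n = 6) on WD, and on CD it was above C57BL/6J, the next strain, by 0.33 (adjusted p = 7.1e-05).

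Ccng1 (cyclin G1), a p53 target that feeds back on p53 through Mdm2, had a positive log2 fold change in all 7 strains and rose in 3. DBA/2J CD mice had 34.3 to 41.3 CPM (median 38.7) and WD mice 55.2 to 96.1 (median 66.6). The diets did not overlap there (4.68% of all genes were higher on WD without overlap), and the log2 fold change was 0.85 (SE 0.11, adjusted p = 9.8e-09), which exceeded the mean of the other 6 strains by 0.57 (SE 0.12, 0.0013, with 7.77% of all genes passing). In C57BL/6J the CD mice had 46.5 to 66.3 CPM (median 49.0) and the WD mice 51.8 to 80.1 (median 71.9), with 6 of 8 above every CD mouse (0.43, SE 0.10, 0.00049). The highest C57BL/6J CD value belonged to replicate 2. PWK/PhJ went from 35.8 to 49.6 CPM (median 39.7) on CD to 41.7 to 61.1 (median 48.0) on WD (0.31, SE 0.11, 0.029). That rise did not pass with any of 5 of the 18 single mice left out, CD replicates 1, 2 and 5 and WD replicates 2 and 4 (adjusted p = 0.099 without WD replicate 2), or with all genes of any count (0.082). The values in 129S1/SvImJ (0.27, adjusted p = 0.056), CAST/EiJ (0.26, 0.093), A/J (0.24, 0.21) and WSB/EiJ (0.17, 0.44) were positive but did not pass. Ccng1 was higher on WD in 14 of the 15 sets of 1 strain and 1 cohort.

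Ccng1 also had the most differing pairs of strains of the 10 genes. Of 21 pairs, 17 differed on each diet, where 48% of all gene and pair tests passed on CD and 50.4% on WD. The order on CD ran from CAST/EiJ (24.4 ± 5.55 CPM, SD, n = 7) to WSB/EiJ (38.1 ± 2.65, n = 6), DBA/2J (38.4 ± 2.42, n = 6), PWK/PhJ (40.4 ± 5.00, n = 6), C57BL/6J (51.0 ± 6.54, n = 8), A/J (56.3 ± 3.24, n = 5) and 129S1/SvImJ (83.5 ± 19.0, n = 7). WSB/EiJ, DBA/2J and PWK/PhJ did not differ from their neighbours among themselves, nor C57BL/6J from A/J. On WD the ends of the order were kept, with 28.6 ± 2.25 CPM (n = 8) in CAST/EiJ and 99.6 ± 14.6 (n = 6) in 129S1/SvImJ, and DBA/2J moved up to 69.8 ± 13.1 (n = 7), next to C57BL/6J (69.3 ± 10.8, n = 8) and not different from it (adjusted p = 0.95).

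Cdkn1a varied widely between mice of 1 group, and it passed the test in no strain by limma-voom (at an unadjusted p under 0.05 it did in CAST/EiJ and PWK/PhJ). On CD, C57BL/6J mice had 3.61 to 68.1 CPM (median 23.8) and on WD 10.8 to 53.5 (median 22.2). DBA/2J had 3.76 to 15.9 CPM (median 9.26) on CD and 9.88 to 23.0 (median 20.5) on WD, with 4 of the 7 WD mice above every CD mouse (log2 fold change 0.97, SE 0.57, adjusted p = 0.26). PWK/PhJ had 1.20 to 7.39 (median 3.71) and 4.74 to 23.8 (median 6.98), with 3 of 7 above every CD mouse (1.51, SE 0.74, 0.12). DESeq2 called this difference (1.44, adjusted p = 0.048) and edgeR did not. The values in 129S1/SvImJ (0.67), WSB/EiJ (0.75), C57BL/6J (0.29) and A/J (-0.07) had adjusted p-values between 0.32 and 0.97. The lowest and highest group means differed 14.4-fold, from 2.02 CPM in CAST/EiJ on WD to 29.1 in 129S1/SvImJ on WD.

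The CAST/EiJ difference ran the other way and rested on 3 mice. CD replicates 5, 6 and 7 had 43.9, 59.2 and 52.95 CPM of Cdkn1a, while replicates 1 to 4 had 1.10, 1.47, 2.85 and 1.34 and the 8 WD mice 1.00 to 5.42 (median 1.46). The same 3 mice had 25.9, 31.2 and 26.1 CPM of Gadd45b, against 0.64, 0.66, 7.85 and 0.68 in replicates 1 to 4, and 183, 49.1 and 68.0 CPM of Trp53inp1, against 20.8 to 33.2. They were the lowest of the group for Gadd45a (1.02, 1.15 and 0.98 CPM, the others 2.25 to 7.68), and Ccng1 was 19.1, 22.8 and 18.1 CPM beside 20.4 to 30.4. Mdm2 was 29.6, 30.4 and 31.1 CPM beside 26.8 to 29.4. All 3 mice were of cohort 4, and the other CD mouse of that cohort, replicate 4, was not among them. Summed macrophage markers (153 to 207 CPM, the others 175 to 281) and proliferation markers (2.84 to 4.46 CPM, the others 3.91 to 5.56) were not raised in them.

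With all mice, the Cdkn1a difference in CAST/EiJ was -1.99 (SE 0.85, adjusted p = 0.088) and lay 2.68 below the mean of the other 6 strains (adjusted p = 0.030). Within cohorts it was 0.56 in cohort 1, 0.24 in cohort 3 and -3.84 in cohort 4. Without the 3 mice it was 0.12 (adjusted p = 0.99), the interaction did not pass (0.51), and the mean effect over the 7 strains, 0.30 (0.33) with all mice, was 0.60 (0.030). Without the whole of cohort 4 in CAST/EiJ the mean effect was 0.62 (0.045), and over the other 6 strains alone it was 0.68 (0.023). Cdkn1a was higher on WD in 12 of the 15 sets of 1 strain and 1 cohort. The edgeR and DESeq2 tests called Cdkn1a lower on WD in CAST/EiJ (-3.53 and -3.55, adjusted p = 5.3e-06 and 6.7e-09), with the same 3 mice in the fit.

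**Figure D2:**
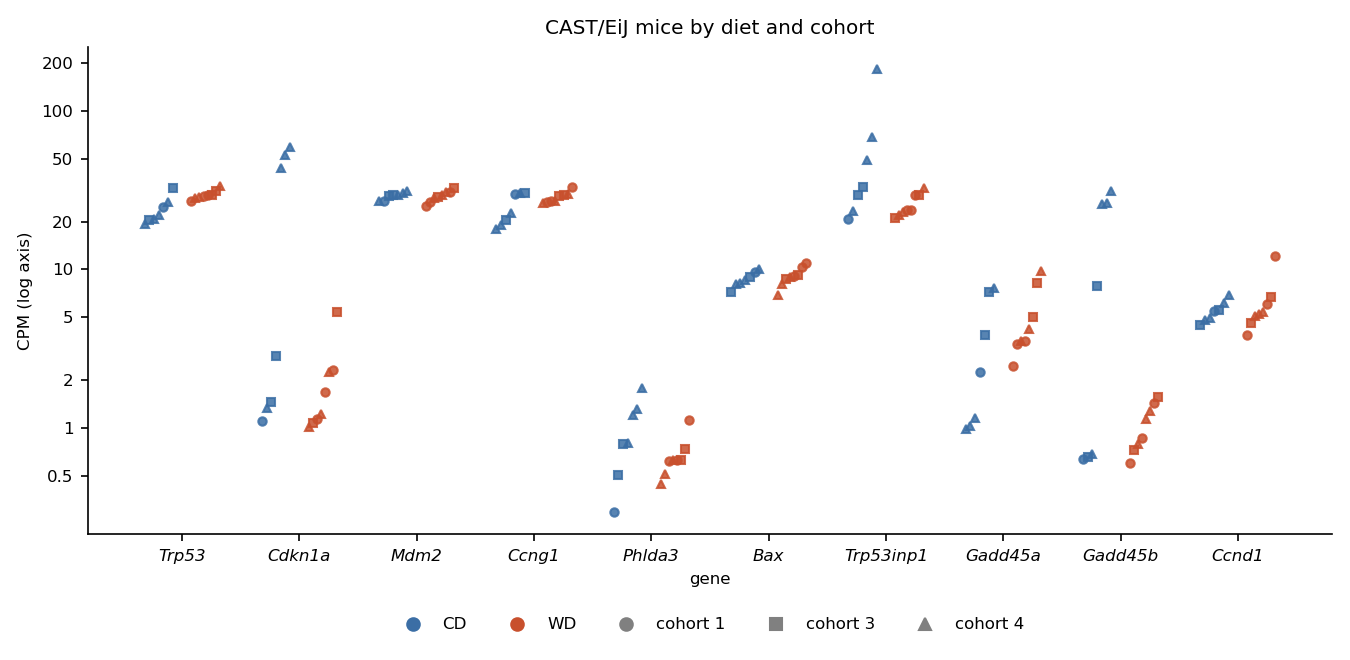
CPM (log axis) of the 10 genes in each CAST/EiJ mouse, coloured by diet and with a marker for each cohort. Of the 7 CD mice, 3 from cohort 4 sit at 43.9 to 59.2 CPM of Cdkn1a and 25.9 to 31.2 of Gadd45b, above the 8 WD mice, and at 0.98 to 1.15 of Gadd45a.

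Phlda3, a p53-induced repressor of Akt signalling, showed the largest mean rise, from a low level. DBA/2J CD mice had 0.217 to 0.658 CPM (median 0.368) and WD mice 1.19 to 4.30 (median 2.44), so all 7 WD mice were above all CD mice. The log2 fold change was 2.57 (SE 0.58, adjusted p = 0.00060), larger than the mean of the other 6 strains by 1.85 (SE 0.61, 0.046). This excess over the other strains missed 0.05 in 4 of 10 alternatives (adjusted p up to 0.087) and without A/J CD replicate 1, 2 or 3 (0.054, 0.054 and 0.051). PWK/PhJ did not overlap either (6.59% of all genes were higher on WD in this way), with 0.221 to 0.739 CPM (median 0.539) on CD and 0.965 to 3.16 (median 1.63) on WD (1.88, SE 0.55, 0.0053). In 129S1/SvImJ the CD mice had 0.546 to 5.42 CPM (median 2.19) and the WD mice 2.65 to 6.55 (median 4.45), and the rise was 1.13 (SE 0.35, 0.010). It was 0.82 without CD replicate 2 or CD replicate 5 of that strain (adjusted p = 0.067 for each), and over 11 alternatives its adjusted p ran from 0.00069 to 0.16, missing 0.05 in 3, edgeR and DESeq2 among them. C57BL/6J had 0.61 (0.21) with all mice and 1.00 (0.026) without CD replicate 2, which held 8.59 CPM where the next CD mouse held 2.58. The values in A/J (0.90, 0.31), WSB/EiJ (0.12, 0.96) and CAST/EiJ (-0.35, 0.74) did not pass. On WD the order ran from WSB/EiJ (0.555 ± 0.122 CPM, SD, n = 6) and CAST/EiJ (0.664 ± 0.203, n = 8), which did not differ, to C57BL/6J (2.87 ± 2.11, n = 8) and 129S1/SvImJ (4.50 ± 1.59, n = 6), which did (adjusted p = 0.039).

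**Figure D3:**
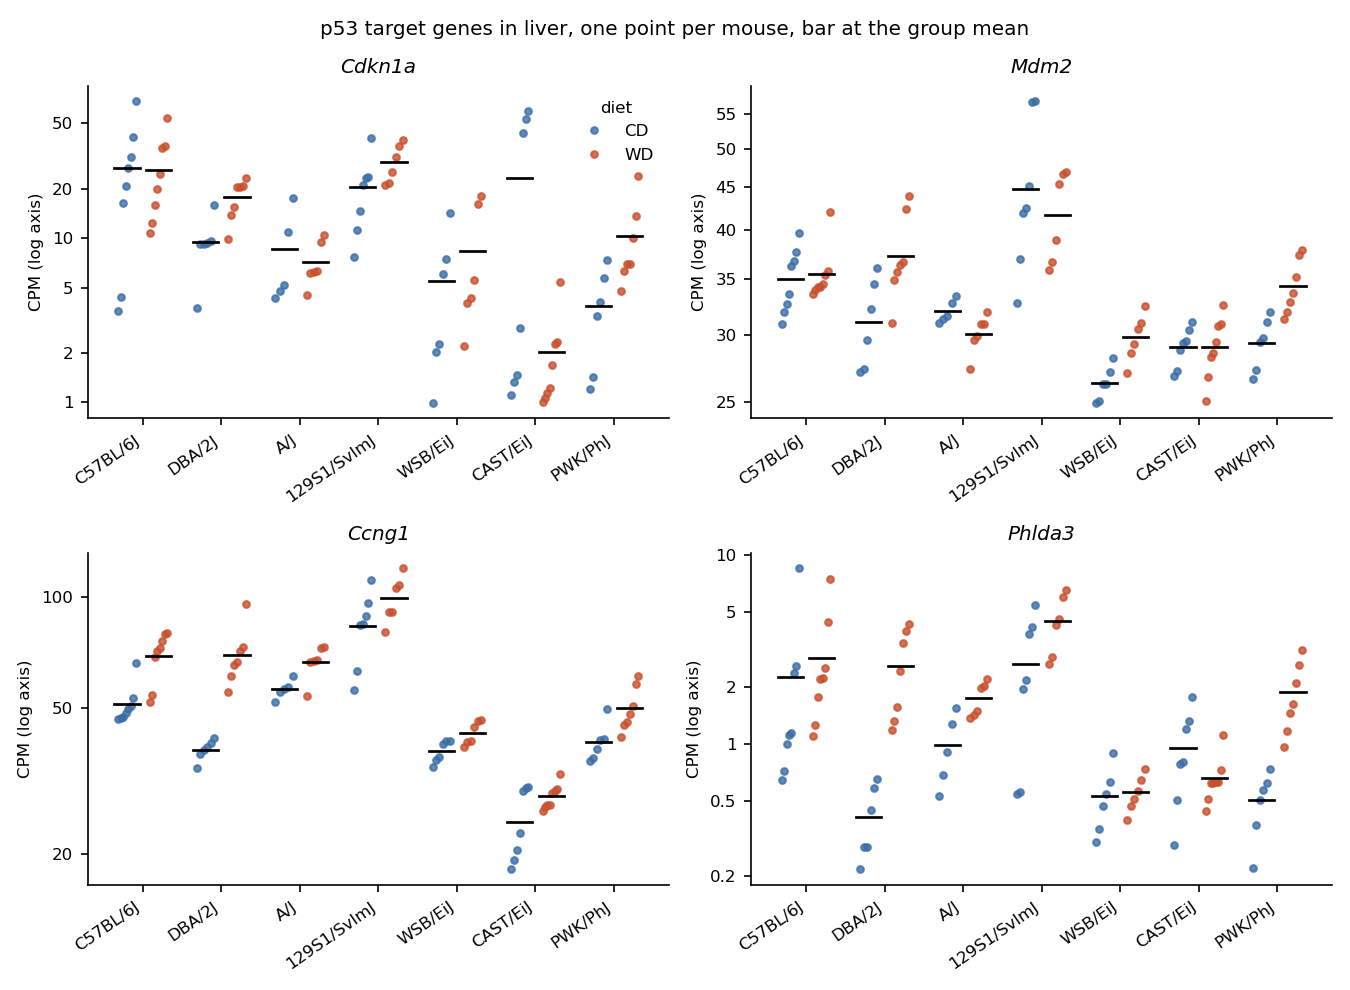
CPM (log axis) of Cdkn1a, Mdm2, Ccng1 and Phlda3 in each mouse by strain and diet, sorted by value within a group, with a bar at the group mean. In DBA/2J the CD and WD points do not overlap for Ccng1 and Phlda3, while Cdkn1a spreads from 3.61 to 68.1 CPM within C57BL/6J CD alone.

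Bax, the pore-forming member of the BCL2 family that opens the mitochondrial outer membrane, did not pass the test in any strain, with 0 of 7 also at an unadjusted p under 0.05, in edgeR and in DESeq2, or on average (mean -0.03, SE 0.04, adjusted p = 0.50). Its log2 fold changes lay between -0.19 in WSB/EiJ and 0.10 in DBA/2J, and group means between 8.17 and 13.0 CPM. Trp53inp1, a stress-induced partner of p53 that also acts in autophagy, passed only in CAST/EiJ by limma-voom. There the CD mice had 20.8 to 183 CPM (median 33.2) and the WD mice 21.1 to 32.6 (median 23.6), and the fall of 0.77 (SE 0.29, adjusted p = 0.047) rested on the CD mice named above: it was -0.04 (0.98) without them. In 129S1/SvImJ the CD range of 38.5 to 176 CPM (median 82.9) covered the WD range of 39.7 to 78.3 (median 48.8; -0.68, SE 0.30, 0.079). The edgeR and DESeq2 tests did call that difference (-0.82 and -0.81, adjusted p = 0.044 and 0.036), and it passed by limma-voom without CD replicate 2 (-0.86, adjusted p = 0.027) or WD replicate 6 (-0.80, 0.049).

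Gadd45a and Gadd45b belong to 1 family of small stress-induced proteins but differed in direction on WD. Gadd45a, a direct p53 target that slows the G2/M transition, rose on average over the strains and passed in no single strain (2 of 7, DBA/2J and CAST/EiJ, at an unadjusted p under 0.05, and 0 in edgeR and DESeq2). In DBA/2J the CD mice had 3.51 to 8.74 CPM (median 5.38) and the WD mice 6.67 to 13.2 (median 10.2; 0.77, SE 0.31, adjusted p = 0.068). In PWK/PhJ they had 1.65 to 3.08 (median 2.30) and 2.67 to 4.76 (median 3.71), and 6 of the 7 WD mice were above every CD mouse (0.68, SE 0.41, 0.22). The mean rise was 0.30 (adjusted p = 0.053) without the 3 CAST/EiJ mice.

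Gadd45b, which is induced by NF-kB and other stress signals, was lower on WD in 6 of 7 strains and in 13 of the 15 sets of 1 strain and 1 cohort. It passed in CAST/EiJ alone by limma-voom, in 3 strains by edgeR (C57BL/6J and A/J also) and in 4 by DESeq2 (those and DBA/2J). In CAST/EiJ the fall was 2.17 on the log2 scale (SE 0.63, adjusted p = 0.0086) with all mice, and the value was -0.28 (0.90) without the 3 CD mice. A/J CD mice had 7.42, 14.7, 2.76, 5.58 and 4.96 CPM and the 6 WD mice 1.39 to 4.58 (median 2.02), with 5 of them below every CD mouse (-1.45, SE 0.57, 0.096). C57BL/6J CD mice had 1.79 to 14.4 (median 5.33) and WD mice 2.10 to 4.12 (median 2.64; -0.98, SE 0.45, 0.098). DBA/2J had 0.706 to 2.41 (median 1.09) and 0.282 to 0.907 (median 0.524), 6 of 7 WD mice lying below every CD mouse (-1.23, SE 0.88, 0.38). PWK/PhJ had 0.322 to 1.48 (median 0.785) and 0.450 to 1.29 (median 0.930; 0.17, SE 0.85, 0.91). The edgeR and DESeq2 adjusted p-values were 0.040 and 0.032 in A/J, and 0.041 and 0.040 in C57BL/6J, and DESeq2 gave 0.045 in DBA/2J. The mean fall over the strains held without the 3 CAST/EiJ mice (-0.77, adjusted p = 0.00034).

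**Figure D4:**
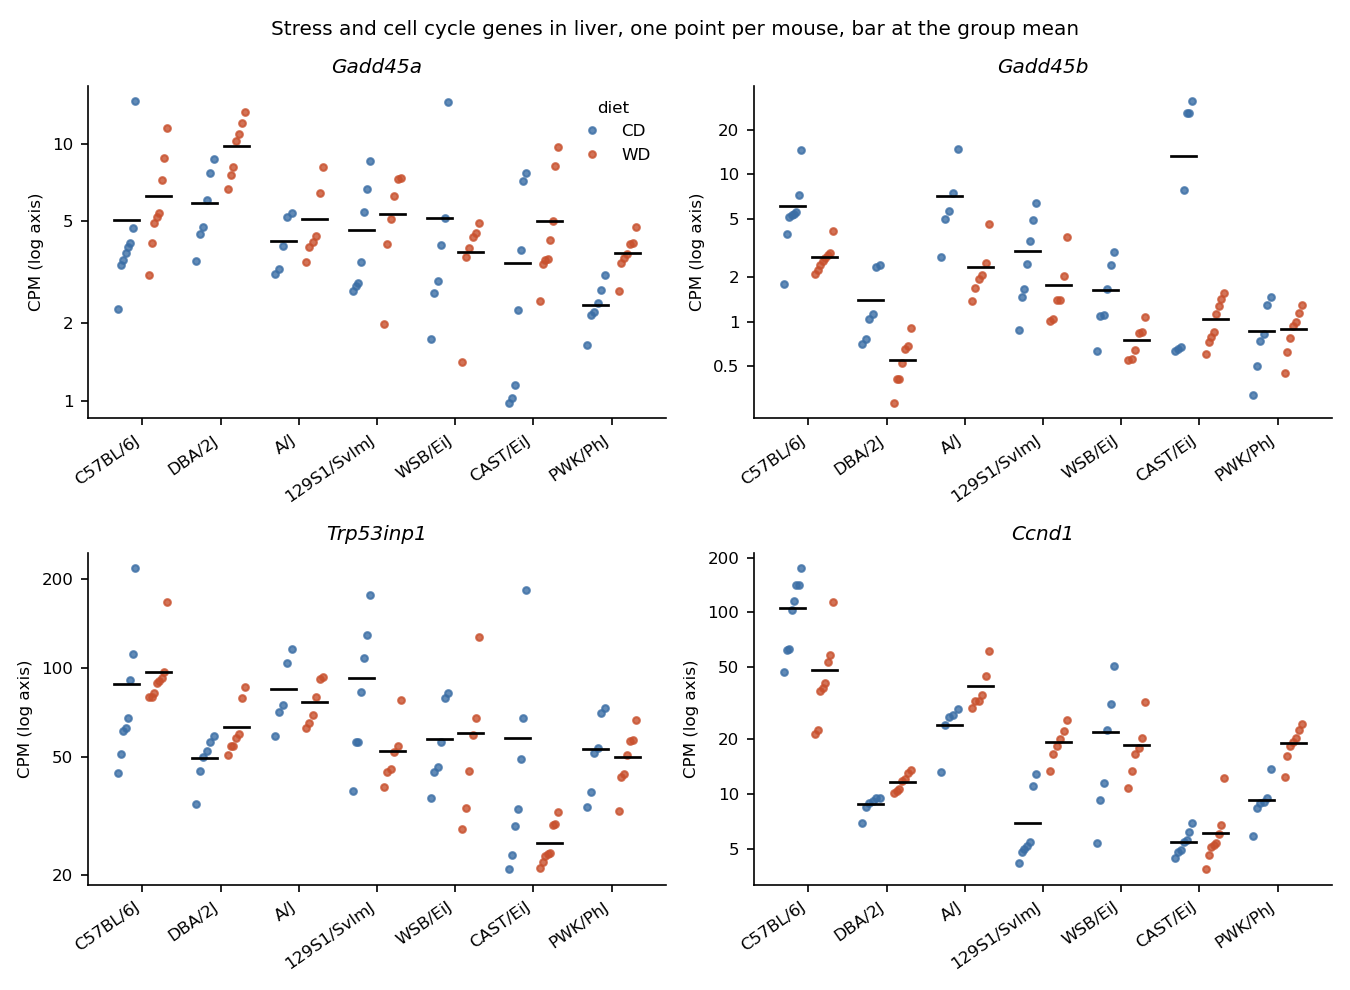
CPM (log axis) of Gadd45a, Gadd45b, Trp53inp1 and Ccnd1 in each mouse by strain and diet, sorted by value within a group, with a bar at the group mean. Ccnd1 falls on WD in C57BL/6J, from a median of 109 to 39.6 CPM, and rises in 129S1/SvImJ, from 5.17 to 19.2.

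Ccnd1 (cyclin D1), which drives cells from G1 towards S phase and rises in regenerating liver, changed in opposite directions. C57BL/6J CD mice had 46.9 to 176 CPM (median 109) and WD mice 21.5 to 115 (median 39.6), with 5 of the 8 WD mice below every CD mouse. Ccnd1 fell by 1.19 on the log2 scale (SE 0.24, adjusted p = 6.9e-05), which was 1.85 below the mean of the other 6 strains (SE 0.28, 4.2e-06, with 4.69% of all genes passing). The fall was seen in both cohorts, at -0.71 and -1.61. In 129S1/SvImJ the CD mice had 4.17 to 12.9 CPM (median 5.17) and the WD mice 13.3 to 25.5 (median 19.2), with no overlap (9.23% of all genes were higher on WD in this way). Ccnd1 rose there by 1.57 (SE 0.34, 0.00025), which exceeded the other strains by 1.38 (SE 0.37, 0.014, with 6.28% of all genes passing). PWK/PhJ CD mice had 5.87 to 13.7 CPM (median 8.98) and WD mice 12.3 to 24.3 (median 19.3; 1.06, SE 0.32, 0.0082). With all genes of any count, the PWK/PhJ rise (adjusted p = 0.061) and the excess in 129S1/SvImJ (0.060) did not pass. In DBA/2J and A/J (4.14% of all genes) the diets did not overlap either, but the changes of 0.41 (0.47) and 0.71 (0.13) did not pass.

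The C57BL/6J level of Ccnd1 was the highest of any strain on CD, at 106 ± 46.1 CPM (SD, n = 8), beside 24.1 ± 6.34 (n = 5) in A/J, 21.8 ± 17.2 (n = 6) in WSB/EiJ, 9.23 ± 2.55 (n = 6) in PWK/PhJ, 8.75 ± 0.966 (n = 6) in DBA/2J, 6.94 ± 3.52 (n = 7) in 129S1/SvImJ and 5.47 ± 0.858 (n = 7) in CAST/EiJ. The lowest and highest group means differed 19.4-fold. Of 21 pairs of strains, 14 differed on CD (48% of all gene and pair tests passed) and 15 on WD (50.4%). Summed proliferation markers moved with Ccnd1 in 129S1/SvImJ, where 6 of 7 rose (14.5% of all genes rose), from 2.55 to 4.67 CPM (median 4.09) on CD to 9.40 to 13.5 (median 11.5) on WD. They also did in PWK/PhJ, where 5 of 7 rose (15.1%), from 4.06 to 10.4 (median 8.34) to 11.8 to 21.9 (median 16.6). In C57BL/6J they did not: 1 of 7 rose (14.3%), with 6.88 to 114 CPM (median 9.31) on CD and 14.9 to 50.9 (median 19.0) on WD. No marker of that list was at 0 reads in any group, though Ccnb1 had a mean of only 0.080 CPM in 129S1/SvImJ on CD. The part of proliferating cells in these differences was not tested.

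Per length, Ccng1 had the highest mean level of the 10, at 15.4 CPM per kilobase of exon (RPKM) over the 14 groups, followed by Trp53inp1 (10.1), Trp53 (7.16), Bax (6.87), Mdm2 (6.54), Ccnd1 (5.23), Cdkn1a (3.99), Gadd45a (2.82), Gadd45b (1.96) and Phlda3 (1.06). The level differed between strains for all 10 genes on CD and for 9 on WD, in F tests that 93.7% and 93.9% of all genes passed. Without the 3 CAST/EiJ mice Trp53 (adjusted p = 0.062) and Gadd45a (0.079) did not pass on CD. Some genes share exon sequence with a gene of the opposite strand, and the sources used here do not say whether counting used strand. Ccnd1 shares 1100 bp with LTO1 (median 565 reads, beside 616 for Ccnd1) and Gadd45a 337 bp with E230016M11Rik (median 141, beside 200), so reads in those stretches cannot be assigned to 1 gene. Cdkn1a shares 273 bp with AC167363.2, whose counts were not used here. Bax shares 192 bp with Gm45808 of the same strand, which had 0 reads in every mouse.

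Mice of 1 group that had more Cdkn1a also had more of some other members. Each mouse's log2 CPM was set against its group's mean, and Cdkn1a was correlated with each of the other 9 genes over all 93 mice, with permutation within groups (2-sided) and adjustment over the 9. Phlda3 (Pearson r = 0.50, adjusted p = 9.0e-05, Spearman rho = 0.52, adjusted p = 9.0e-05, from the smallest p that 100000 permutations can give), Gadd45b (r = 0.63, 0.00045, rho = 0.42, 0.0022), Mdm2 (r = 0.29, 0.0021, rho = 0.27, 0.021) and Bax (r = 0.29, 0.014, rho = 0.32, 0.012) passed by permutation in both measures. Trp53inp1 passed by r only (r = 0.41, 0.014, rho = 0.26, 0.062). Trp53 (r = -0.01), Ccng1 (0.00), Gadd45a (-0.19) and Ccnd1 (0.09) did not pass.

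Those relations were repeated within cohorts and with some CAST/EiJ CD mice left out together, but not with each single mouse left out. With cohort means subtracted, Phlda3 (r = 0.47), Gadd45b (0.60) and Bax (0.30) still passed the permutation test in both measures. Mdm2 passed by r only (r = 0.31, adjusted p = 0.012, rho = 0.25, 0.070, by permutation), Ccng1 by rho only (r = 0.08, 0.68, rho = 0.28, 0.037, by permutation) and Trp53inp1 by neither (r = 0.30, 0.22, rho = 0.25, 0.070, by permutation). The 2 mice farthest from the median of Cdkn1a were CAST/EiJ CD replicates 6 and 7, and without them r was 0.50 for Phlda3 and 0.51 for Gadd45b. Without all 3 of these mice, Phlda3 (r = 0.46), Bax (0.44), Gadd45b (0.36) and also Ccng1 (r = 0.28, adjusted p = 0.010, rho = 0.25, 0.035, by permutation) passed in both measures. Mdm2 passed by r only (r = 0.28, 0.010, rho = 0.23, 0.051, by permutation), Trp53 by rho only (r = 0.23, 0.065, rho = 0.26, 0.035, by permutation) and Trp53inp1 by neither (r = 0.20, adjusted p = 0.19, by permutation).

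**Figure D5:**
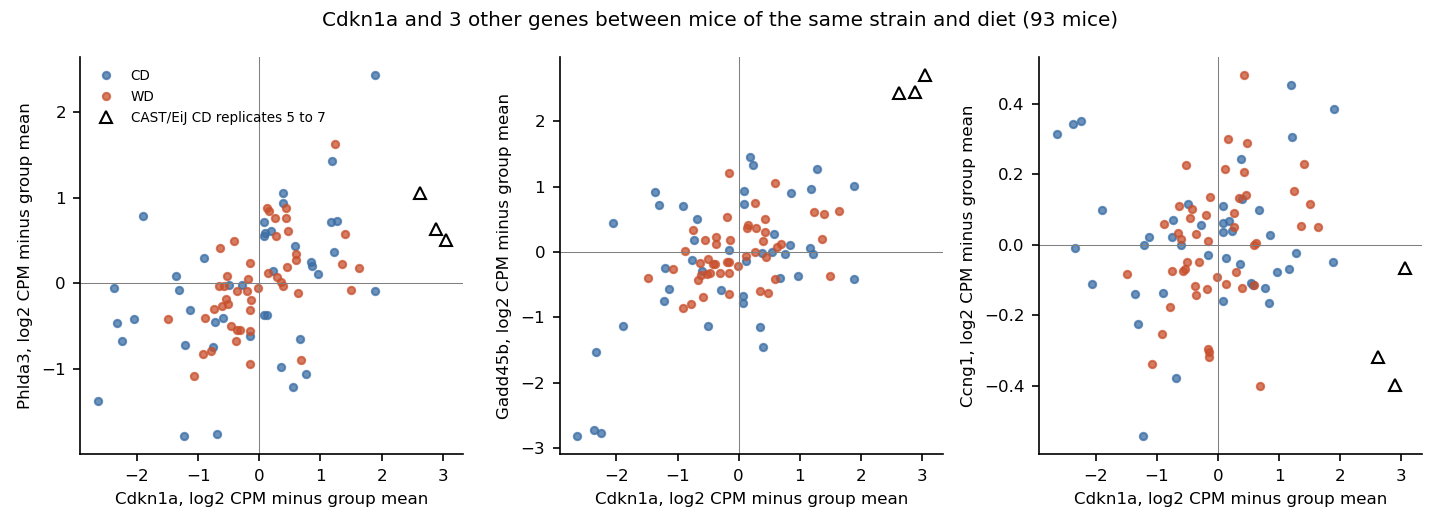
Deviation of each mouse from its group mean in log2 CPM, Cdkn1a on the horizontal axis against Phlda3, Gadd45b and Ccng1, for 93 mice; triangles mark CAST/EiJ CD replicates 5 to 7. Phlda3 rises with Cdkn1a (r = 0.50) with or without the triangles, Gadd45b does so more weakly without them (r = 0.63 and 0.36), and for Ccng1 the triangles lie to the lower right (r = 0.00 with them and 0.28 without).

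Across the means of the 14 groups, described without a test since groups share strains and diets, Cdkn1a went with Mdm2 (r = 0.83), Phlda3 (0.79) and Ccng1 (0.75), and Mdm2 with Phlda3 (0.81) and Ccng1 (0.81). Trp53 mRNA had correlations of -0.38 to 0.15 with the other 9. The genes whose group means were most like those of Ccng1, among all genes tested, were Eda2r, the receptor for ectodysplasin A2 (r = 0.95), Vps36 (0.95) and Rad51b (0.95). For Phlda3 they were Eda2r (0.89), Apaf1 (0.87) and Kif18a (0.86), for Cdkn1a Ly6c2 (0.93), Zmat3 (0.91) and Bin2 (0.89), for Gadd45b Slc9a7 (0.90), Tcea1 (0.88) and 2700097O09Rik (0.84), and for Ccnd1 Klrc2 (0.95), Zfp984 (0.92) and Igkv3-2 (0.92). Some of these had very low levels in every group. The highest group mean in log2 CPM was -1.42 for Klrc2, -1.58 for Igkv3-2, -0.19 for Slc9a7 and -0.09 for Kif18a.

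Other genes of the pathway were read from lists of textbook members, whose counts are set beside the 27.1% of all genes that rose and the 24.5% that fell on average. Of 28 further p53 targets, 16 rose and 3 fell on average over the strains (median log2 fold change 0.20, beside 0.01 over all genes). By strain, the number of the 28 that rose was 11 in DBA/2J (10.2% of all genes rose), 9 in PWK/PhJ (15.1%), 8 in C57BL/6J (14.3%), 7 in 129S1/SvImJ (14.5%), 3 in WSB/EiJ (4.97%), 3 in CAST/EiJ (9.77%) and 1 in A/J (4.39%), and 4 fell in CAST/EiJ (9.73%). Triap1, an inhibitor of apoptosis, rose in 5 strains (mean log2 fold change 0.20), most in C57BL/6J, from 10.3 to 13.3 CPM. Fas, the death receptor, rose in 4 (0.37), with 12.1 CPM on CD and 19.0 on WD in 129S1/SvImJ. Apaf1, the core of the apoptosome, rose in 4 (0.33), with 3.29 and 5.32 CPM in PWK/PhJ.

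Among 20 regulators and cofactors of p53, 3 rose and 9 fell on average (median -0.06). Rpl5 and Rpl11, ribosomal proteins that can bind and inhibit Mdm2, fell in all 7 strains, by mean log2 values of -0.25 and -0.23. In PWK/PhJ, Rpl11 went from 180 to 129 CPM. Crebbp, a histone acetyltransferase that acts as a p53 coactivator, fell in 4 strains (-0.21). Of 11 BCL2 family genes 8 rose and 1 fell on average (median 0.34): Mcl1, which protects from apoptosis, rose in 6 strains (0.41) and the pro-apoptotic Bid in 5 (0.34), while Bcl2l11 (Bim), also pro-apoptotic, fell in 5 (-0.44). Bak1, which opens the mitochondrial pore as Bax does, rose in all 7 strains (0.37), from 10.1 to 13.2 CPM in PWK/PhJ, whereas Bax passed in none. Of the 7 paralogs tested (Trp63 and Trp73 were under the filter) 3 rose and 1 fell on average. The one that fell was Gadd45g (-0.99), which passed within a strain only in CAST/EiJ by limma-voom (means of 52.9 CPM on CD and 17.4 on WD, with the 3 CD mice in the fit). Bok rose in 2 strains and fell in DBA/2J.

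The 16 G1 cyclins, kinases and inhibitors gave 7 rises and 3 falls on average (median 0.01). E2f1, the transcription factor that opens S phase, rose in all 7 strains (1.01), from 0.816 to 2.21 CPM in WSB/EiJ and from 2.93 to 6.43 in DBA/2J. Cdk6, a partner of cyclin D, rose in 5 strains (0.52) and Rbl1 (p107) in 4 (0.34). Of 25 senescence and secretory genes tested, 16 rose and 4 fell on average (median 0.32), with 13 rises each in 129S1/SvImJ (14.5% of all genes) and C57BL/6J (14.3%), 9 in PWK/PhJ (15.1%) and 1 in DBA/2J (10.2%). The chemokine Ccl2 rose in 6 strains (2.25) and the macrophage elastase Mmp12 in 5 (3.56), whereas Vegfa fell in 5 (-0.31). The inhibitors most used as senescence markers beside Cdkn1a, named after their values were seen, did not rise: Cdkn2a did not pass on average (0.10, adjusted p = 0.72) and Cdkn2b fell (-0.43, 0.0084).

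Markers of other liver cells moved in some of the same strains. On average over the strains 27.1% of all genes rose and 24.5% fell, and the shares that rose in each strain, given next, stand beside every list here. Of 11 macrophage markers, 8 rose in both 129S1/SvImJ (14.5% of all genes rose) and PWK/PhJ (15.1%), and 7 in C57BL/6J (14.3%). In WSB/EiJ 2 rose (4.97%), in A/J (4.39%) and CAST/EiJ (9.77%) 1 each, and in DBA/2J 0 (10.2%). Their summed level was 177 to 289 CPM on CD and 357 to 507 on WD in 129S1/SvImJ, and 273 to 469 on CD and 252 to 443 on WD in DBA/2J. Ccng1, Phlda3 and Mdm2 rose in DBA/2J, where no macrophage marker passed by limma-voom, which does not show that none changed. Of 9 stellate cell and fibroblast markers, 6 rose on average, with 5 in PWK/PhJ, 4 in C57BL/6J, 3 in 129S1/SvImJ, 2 in A/J and 0 in the other strains, and their summed level in PWK/PhJ was 147 to 227 CPM (median 207) on CD and 309 to 643 (median 490) on WD. Of 6 cholangiocyte markers, 4 rose on average and 5 in PWK/PhJ. There the sum was 64.7 to 141 CPM (median 109) on CD and had a median of 370 on WD, with no overlap (6.59% of all genes were higher on WD in this way). Most of this cholangiocyte sum in PWK/PhJ was Spp1 (means of 98.8 CPM on CD and 339 on WD), while Epcam had means of 0.826 and 4.08. Of 9 lymphocyte and neutrophil markers, 6 rose on average and 7 in 129S1/SvImJ, from sums of 7.63 to 12.5 CPM (median 9.84) to 18.3 to 31.2 (median 23.1). Of 7 endothelial markers, 3 rose and 2 fell on average. No marker of these lists was at 0 reads in any group. The macrophage marker Gpnmb was close to it in DBA/2J, with means of 0.018 CPM on CD and 0.078 on WD, so its lack of a call there says little. Of 10 hepatocyte markers, between 2 (DBA/2J, where 7.77% of all genes fell, and CAST/EiJ, 9.73%) and 7 (129S1/SvImJ, 13.6%) fell in a strain. In DBA/2J and PWK/PhJ 1 rose. Their summed level in CAST/EiJ, for one, was 112321 to 133088 CPM on CD and 74184 to 94883 on WD. Most of that sum was Alb (means of 92927 CPM on CD and 55360 on WD), and 8 of the 10 markers were not called there. The part of cell composition in the changes of the 10 genes was not tested.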

How the data were processed

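Whole-liver RNA of 93 mice was sequenced (BGISEQ-500), and the authors deposited raw read counts per gene, made with STAR 2.7.1a on GRCm38 (mm10), per the labels and the submitters' processing notes; the annotation release and strand setting are not given in the sources used here. Reads on no gene, 19.9% to 34.7% per mouse, were left out of library sizes. All strains were counted on the C57BL/6J genome, so mismatches can lower levels in distant strains. Groups came from the labels. Replicate numbers follow accession order and pair no mice. No 2 libraries held identical counts. Genes were kept by edgeR 4.0.16 filterByExpr (minimum count 10), scaled by TMM, and fitted over the 14 groups with limma-voom 3.58.1 in R 4.3.3, with contrasts for each strain's diet effect, their mean, each strain against the other 6, the interaction and pairs of strains, adjusted by Benjamini-Hochberg at 0.05. Log2 CPM used a prior count of 2. Gene positions came from GENCODE M21. Code was tested on simulated data. The members and lists were chosen with earlier results of these data known. Beside the 10 members, the text names of each list other than the marker lists the 3 genes called in the most strains in 1 direction, with ties broken by mean change. Cdkn2a and Cdkn2b, and the markers Gpnmb, Ccnb1 and Alb, were named outside this rule. The alternatives were edgeR's quasi-likelihood test, DESeq2 1.42.0, upper-quartile factors, other filters, cohort or RNA integrity as covariate, sample weights, separate fits and mice left out. The labels do not say which mice shared a cage or litter.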

Additional observations from a re-analysis of the deposited data

Results flagged for a closer look

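In 18 of the 140 combinations of gene and group, 1 mouse lay far from the others of its group by Dixon's gap test at the 95% level. Chance gives 1 in 20, or 7 combinations, only for normally distributed values. The test was run on CPM without a log, so 18 beside 7 is no measure of an excess. Values are in CPM, with the nearest other mouse in parentheses. C57BL/6J WD replicate 7 had Trp53 at 38.6 (30.8). CAST/EiJ WD replicate 4 had Cdkn1a at 5.42 (2.33). C57BL/6J WD replicate 3 had Mdm2 at 42 (35.8), Trp53inp1 at 168 (97.4), Gadd45b at 4.12 (2.91) and Ccnd1 at 115 (57.9). C57BL/6J CD replicate 2 had Ccng1 at 66.3 (53.1), Phlda3 at 8.59 (2.58), Trp53inp1 at 219 (111) and Gadd45a at 14.6 (4.7). A/J WD replicate 3 had Ccng1 at 53.9 (66.5). CAST/EiJ WD replicate 3 had Phlda3 at 1.12 (0.731) and Ccnd1 at 12.2 (6.72). CAST/EiJ CD replicate 5 had Trp53inp1 at 183 (68). WSB/EiJ WD replicate 6 had Gadd45a at 1.42 (3.64). WSB/EiJ CD replicate 5 had Gadd45a at 14.5 (5.12). C57BL/6J CD replicate 6 had Gadd45b at 14.4 (7.19). A/J WD replicate 5 had Gadd45b at 4.58 (2.49). 

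The diet effect differed between strains, by the F test of the interaction in limma-voom, for Trp53 (adjusted p = 0.00383), Cdkn1a (0.0351), Mdm2 (0.0182), Ccng1 (0.00591), Phlda3 (0.00564) and Ccnd1 (2.97e-06). Trp53 and Cdkn1a did not pass it without the 3 CAST/EiJ CD mice (0.0764 and 0.512).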

How the results depend on the processing

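No paired analysis was possible because the labels carry no replicate numbers, and cages or litters are not given. Of 1220 single values recomputed under settings that leave out no single mouse, 1133 kept their direction and side of the threshold, 38 no longer passed, 49 newly passed and none that had passed changed sign. The number of the 10 genes changed in A/J, 0, was 1 with edgeR, DESeq2, cohort as covariate, without CAST/EiJ cohort 4 or without the 3 CAST/EiJ CD mice, 3 with sample weights and 4 with separate fits. In 129S1/SvImJ, 2 became 4 with sample weights or without those CAST/EiJ mice or that cohort, and 1 with separate fits. DBA/2J went from 3 to 6 with separate fits, CAST/EiJ from 3 to 1 with separate fits and to 0 without the 3 mice or cohort 4, and PWK/PhJ from 4 to 2 with all genes of any count. The interaction count of 6 fell to 3 without cohort 4, and hepatocyte marker calls from 30 to 18 with all genes of any count; the causes were not tested. The correlation of Cdkn1a with Trp53inp1 was 0.30 with cohort means subtracted and 0.20 without the 3 mice, neither passing, and that with Ccng1 was 0.28 without them and passed.

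With 1 mouse left out at a time, the counts ran from 2 to 3 in C57BL/6J, 2 to 4 in DBA/2J, 0 to 1 in A/J, 1 to 4 in 129S1/SvImJ, 0 to 0 in WSB/EiJ, 2 to 6 in CAST/EiJ and 2 to 4 in PWK/PhJ, from 5 to 6 for the mean effect and from 5 to 7 for the interaction. The CAST/EiJ count was 6 without CD replicate 2 or 4 and 5 without CD replicate 1, the PWK/PhJ count 2 without CD replicate 1, and the A/J count 1 without CD replicate 3. Settings without the CAST/EiJ mice and without mice other than the A/J CD ones were added after seeing the data. Depth was ample, except that Phlda3 and Gadd45b had as few as 10 and 13 reads in a mouse.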
